A study of Mus musculus with 12 samples.

Results

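The microRNAs miR-132 and miR-212 were followed in small RNA libraries of the mouse cerebral cortex, as the rows of the 2 precursors mmu-mir-132 and mmu-mir-212 out of 589 precursors in the deposited table. They were chosen by name, as members of the activity-dependent cluster of miR-212 and miR-132, and both rows were found. The study compared 4 groups of female C57BL/6J mice, 7 weeks old at the start: WT mice on water, WT mice on water with 10% (v/v) ethanol for 5 months (WT + EtOH), mice without the Toll-like receptor 4 (TLR4-KO) on water, and TLR4-KO mice on the same ethanol (TLR4-KO + EtOH). Each group had 3 libraries, and each library was made from the pooled cortex RNA of 3 mice. The WT mice came from a commercial breeder and the TLR4-KO mice from another laboratory, so that the loss of TLR4 and the origin of the mice cannot be told apart. Pooled bulk tissue also leaves fewer cells of a type and less RNA per cell indistinguishable.

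A miRNA is cut from a hairpin precursor as a short mature strand, from its 5′ arm (5p) or its 3′ arm (3p), and pairs with messenger RNAs through its seed, bases 2 to 8. miR-132 and miR-212 are processed from the same primary transcript, which the transcription factor CREB switches on after synaptic activity and neurotrophin signals in neurons. They are known for their part in dendrite growth, in spine formation and in the circadian clock. In blood monocytes, lipopolysaccharide, the bacterial ligand of TLR4, also raises miR-132 through CREB, which makes the cluster of interest in a study of TLR4.

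The mature strands are shown first because the 2 miRNAs share a seed in one arm only, and the deposited value of a precursor does not separate its arms. The sequences are from RefSeq (GRCm38.p6), written 5′ to 3′ with the seed in capitals.
mmu-miR-132-3p: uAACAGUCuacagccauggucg
mmu-miR-212-3p: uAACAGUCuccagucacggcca
mmu-miR-132-5p: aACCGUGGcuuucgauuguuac
mmu-miR-212-5p: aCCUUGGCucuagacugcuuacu
The 3p strands had the seed AACAGUC in common, and among 1738 mature mouse miRNAs of the RefSeq table only these 2 carried it. Aligned from the 5′ end without gaps, the 3p strands were identical at 17 of 22 positions, the first 9 included. Counted from 1 at the 5′ end, with the base of miR-132 first, they differed by A10C, C14U, U17C, U20C and G22A. The 5p strands were identical at 9 of the 22 positions compared, and each had a seed that no other miRNA of the table carried.

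Both hairpins lie on the forward strand of chromosome 11 of GRCm38, mmu-mir-212 (Mir212) at chr11:75173388-75173478 and mmu-mir-132 (Mir132) at chr11:75173682-75173747. They are shown with the mature arms in capitals, as the place from which the strands above are cut.
mmu-mir-212: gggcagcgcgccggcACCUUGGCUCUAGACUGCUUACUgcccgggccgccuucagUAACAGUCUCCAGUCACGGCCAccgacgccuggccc
mmu-mir-132: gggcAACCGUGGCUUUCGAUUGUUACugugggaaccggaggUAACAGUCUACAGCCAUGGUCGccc
In the GENCODE annotation, 203 bases separate the hairpins, and both are inside intron 1 of the non-coding RNA gene 1700016P03Rik, which has 3 exons and the same strand. The intron is 1380 bases long, and mmu-mir-212 begins 828 bases after the first base of the host.

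**Figure D1:**
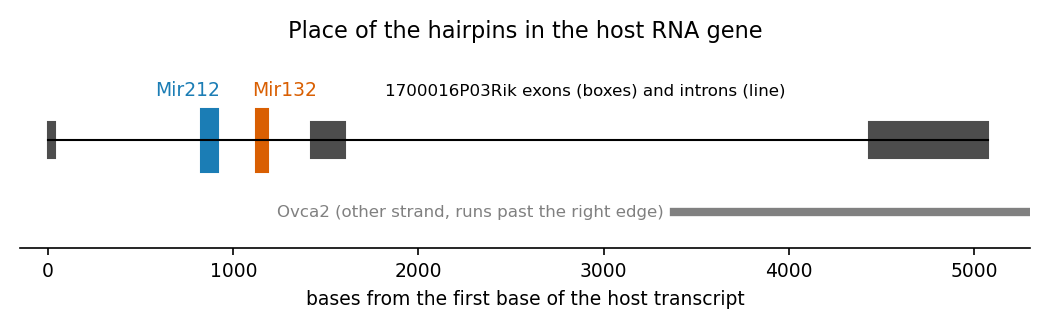
Map of the host gene 1700016P03Rik, with the distance from its first base on the x axis in bases, its 3 exons as dark boxes, and the hairpins of mmu-mir-212 (blue) and mmu-mir-132 (orange). Both hairpins are in the intron of 1380 bases between the exons 1 and 2, with 203 bases between them.

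As the seed is shared, the sites that pair with it are the same for both 3p strands, and the letters GACTGTT (the reverse complement of the seed, searched on the transcript strand only) were looked up in the longest annotated 3′ UTR of 4 messenger RNAs reported as targets of miR-132. Of 21005 mouse genes with an annotated 3′ UTR, 10.7% held these letters, a share that rises with length. Arhgap32, the GTPase activating protein p250GAP, had 1 match in 7298 bases, and 46.5% of the 3′ UTRs within 10% of that length had one. Ep300, the histone acetyltransferase p300, had 1 match in 1095 bases (8.33% of those of like length), and Rasa1, a Ras GTPase activating protein, 1 match in 1324 bases (11.0%). Ache, acetylcholinesterase, had 0 matches in 228 bases. The 3 sites are printed with the match in capitals, in GRCm38 coordinates.
Arhgap32, chr9:32261177-32261204, forward strand: ctctgctggacagtgGACTGTTctattt
Ep300, chr15:81652001-81652028, forward strand: ttggatcactgtataGACTGTTaaattt
Rasa1, chr13:85215622-85215649, reverse strand: tgaacatgaccatttGACTGTTcactga
These messenger RNAs were not measured in the libraries, and a match of letters describes the sequence only.

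The deposited value of a precursor is a normalized score with no unit on a scale that the sources do not state. It is called log-like here from the spread of its values, and a difference between such scores is not a fold change. Its highest value is 135 in every library. Between 216 and 270 precursors were above 0 in a library, and 190 were above 0 in all 12. The deposited table holds no read counts, and the study gives the number of miRNA reads by group rather than by library, so that the reads behind a single value are not known. The 3 WT libraries were closer to each other than the libraries of the other groups. Over the 190 precursors, the median SD within a group was 1.75 in WT and 3.38 to 4.28 in the other groups. In each group replicate 1 had the most precursors above 0, with 270 in both WT groups and 262 in both TLR4-KO groups.

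Both precursors were above 0 in all 12 libraries, at intermediate values. By the mean over libraries mmu-mir-212 took place 68 (57.8 ± 4.36, SD, n = 12) and mmu-mir-132 place 89 (50.9 ± 3.98) among the 324 precursors that were detected at all. The sources do not say whether the score is scaled to the length of a precursor, so that this order is one of deposited values and not of molecules. The next precursors in the order were not resolved from them. mmu-mir-30f (58.7) and mmu-mir-136 (59.2) stood just above mmu-mir-212, with mmu-mir-99a (57.3) and mmu-mir-3071 (57.1) just below. mmu-mir-3544 (51.0) and mmu-mir-423 (51.7) stood just above mmu-mir-132, with mmu-mir-337 (50.4) and mmu-mir-192 (50.3) just below. Each of these means differed from that of its member by less than the SD of the member over the libraries. The SD of mmu-mir-132 was the 68th lowest and that of mmu-mir-212 the 90th lowest among the 190 precursors, against a median of 4.51.

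mmu-mir-132 was not resolved between the 4 groups, whose means ran from 49.6 to 53.5. Its values were 51.1, 49.1 and 51.1 in the WT libraries and 47.4, 47.9 and 55.1 in WT + EtOH. They were 46.0, 51.4 and 51.4 in TLR4-KO and 61.0, 51.1 and 48.5 in TLR4-KO + EtOH. TLR4-KO + EtOH replicate 1 was the highest of the 12 libraries and TLR4-KO replicate 1 the lowest, and every group overlapped every other. The group means (± SD, n = 3) were 50.4 ± 1.11 in WT mice on water and 50.2 ± 4.28 on ethanol, and 49.6 ± 3.13 in TLR4-KO mice on water and 53.5 ± 6.61 on ethanol. No neighbours in this order differed by more than their spread. Tested over the 4 groups together with the moderated F of limma, its adjusted p was 1.

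mmu-mir-212 was lowest in WT. Its values were 53.8, 53.6 and 54.7 in the WT libraries and 53.6, 59.3 and 58.3 in WT + EtOH. They were 66.8, 59.3 and 55.3 in TLR4-KO and 65.1, 57.6 and 56.1 in TLR4-KO + EtOH. All 6 libraries of TLR4-KO mice were above the 3 WT libraries, as for 7.55% of the 318 precursors above 0 in any of these libraries, while WT + EtOH replicate 1 was at the level of WT. The highest values were those of replicate 1 of TLR4-KO and of TLR4-KO + EtOH. The group means (± SD, n = 3) were 54.0 ± 0.550 in WT mice on water and 57.1 ± 3.01 on ethanol, and 60.5 ± 5.86 in TLR4-KO mice on water and 59.6 ± 4.80 on ethanol. In this order, neither WT + EtOH and TLR4-KO + EtOH nor TLR4-KO + EtOH and TLR4-KO differed by more than their spread, and WT and WT + EtOH overlapped. Its adjusted p over the 4 groups together was 0.964 in limma.

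**Figure D2:**
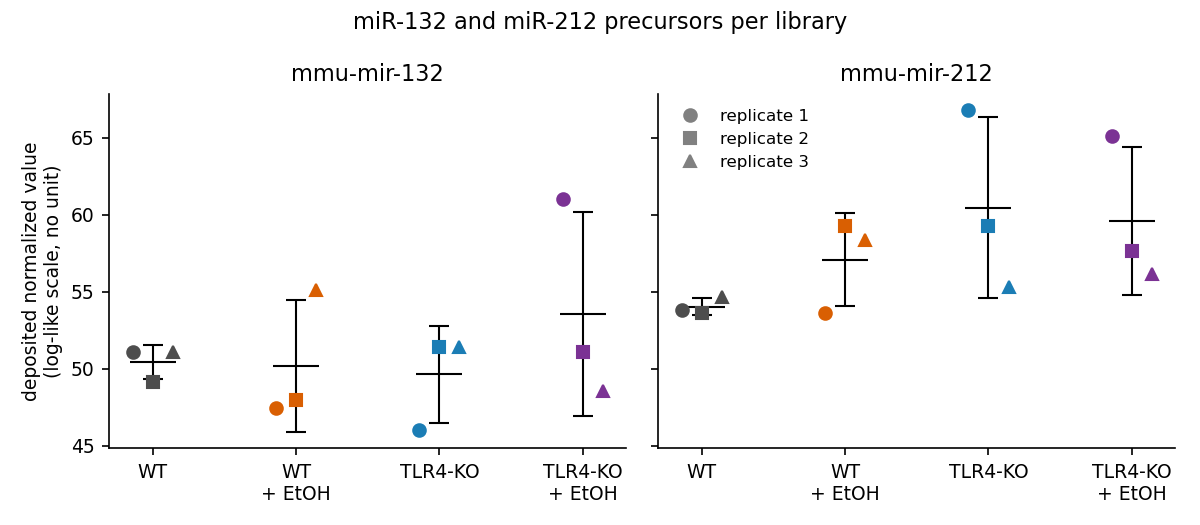
Deposited normalized value (y axis, log-like scale with no unit, not starting at 0) of mmu-mir-132 (left) and mmu-mir-212 (right) in the 4 groups. Each point is a library of 3 pooled mice, its shape gives the replicate number, and the bars give the group mean and SD (n = 3). The WT points of mmu-mir-212 lie between 53.6 and 54.7, below the TLR4-KO points at 55.3 to 66.8, while the groups overlap for mmu-mir-132.

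The first comparison, WT + EtOH with WT, asks for the effect of chronic alcohol. limma called 1.7% (10) of the 589 precursors at an adjusted p under 0.05, and neither member was among them. This and the later called shares are of all 589, of which only the 324 above 0 in any library could be called. The adjustment counts the others too, which raises an adjusted p. The shares of separated precursors are of those above 0 in the libraries compared, so that the 2 kinds of share have unlike bases. mmu-mir-132 differed by −0.256 (standard error 3.42, 95% interval −8.10 to 7.59, adjusted p = 1 in limma), with 1 ethanol library above and 2 below all WT libraries. mmu-mir-212 differed by 3.05 (standard error 3.27, 95% interval −4.44 to 10.6, adjusted p = 1 in limma), with 2 of 3 ethanol libraries above all WT libraries. On leaving out 1 library at a time, the difference of mmu-mir-212 ran from 1.97 to 4.77. A full separation upwards was seen for neither member, and for 14% of the 307 precursors above 0 in these libraries. The intervals are wide beside the median within-group SD, and changes of either sign within them are not excluded. Their standard errors draw on all 4 groups. With the compared groups alone, the unadjusted p of mmu-mir-212 was 0.143 in limma (adjusted p = 0.678), in place of 0.377.

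TLR4-KO was then compared with WT, for the effect of the receptor without alcohol, where limma called 2.55% of the precursors. mmu-mir-212 was higher in 3 of 3 TLR4-KO libraries than in any WT library, by 6.42 (standard error 3.27, 95% interval −1.07 to 13.9). The difference did not pass the test (adjusted p = 0.520 in limma across the 589 precursors). Its exact permutation p was 0.1 (two-sided), the smallest that 3 libraries against 3 allow. Such a separation upwards was found in 13.9% of the 302 precursors above 0 in these libraries. TLR4-KO replicate 1 carried much of the difference, which was 3.24 without that library. mmu-mir-132 differed by −0.785 (standard error 3.42, 95% interval −8.63 to 7.06, adjusted p = 1 in limma), with 2 TLR4-KO libraries above and 1 below the WT libraries.

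With alcohol given to TLR4-KO mice (TLR4-KO + EtOH against TLR4-KO, 0.34% of the precursors called), mmu-mir-132 differed by 3.90 (standard error 3.42, 95% interval −3.94 to 11.7, adjusted p = 1 in limma). This difference rested on TLR4-KO + EtOH replicate 1, and it was 0.158 without that library. mmu-mir-212 differed by −0.845 (standard error 3.27, 95% interval −8.34 to 6.65, adjusted p = 1 in limma), and its sign turned to 2.34 without TLR4-KO replicate 1. Between the genotypes under alcohol (TLR4-KO + EtOH against WT + EtOH, 0.509% called), the differences were 3.37 for mmu-mir-132 (95% interval −4.47 to 11.2) and 2.53 for mmu-mir-212 (95% interval −4.97 to 10.0), both with an adjusted p of 1 in limma. Without TLR4-KO + EtOH replicate 1 they were −0.371 and −0.210.

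The alcohol effect itself was compared between genotypes, by subtracting the ethanol difference of WT mice from that of TLR4-KO mice (1.19% of the precursors called). The difference was 4.16 for mmu-mir-132 (standard error 4.84, 95% interval −6.93 to 15.2) and −3.90 for mmu-mir-212 (standard error 4.63, 95% interval −14.5 to 6.71), with an adjusted p of 1 in limma for both. Neither interval excludes 0. The estimate for mmu-mir-132 was 0.414 without TLR4-KO + EtOH replicate 1, and that for mmu-mir-212 was −0.714 without TLR4-KO replicate 1.

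The 2 factors were also averaged over each other, which sets 6 libraries against 6. Alcohol averaged over genotype (0.34% called) gave 1.82 for mmu-mir-132 (95% interval −3.72 to 7.37) and 1.10 for mmu-mir-212 (95% interval −4.20 to 6.41), with exact permutation p of 0.535 and 0.605 over 400 arrangements within genotype. TLR4-KO averaged over alcohol (1.36% called) gave 1.29 for mmu-mir-132 (95% interval −4.25 to 6.84, exact permutation p = 0.62). For mmu-mir-212 it gave 4.47 (standard error 2.31, 95% interval −0.828 to 9.78, adjusted p = 0.701 in limma). The exact permutation p of mmu-mir-212 was 0.09 over 400 arrangements within the alcohol groups, where 0.005 is the smallest possible, and 0.35 after adjustment over the 7 comparisons. The difference ran from 2.88 to 5.77 on leaving out 1 library at a time. Over these comparisons limma called 0 of 14 member tests, and 0 of 14 had an unadjusted p under 0.05.

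**Figure D3:**
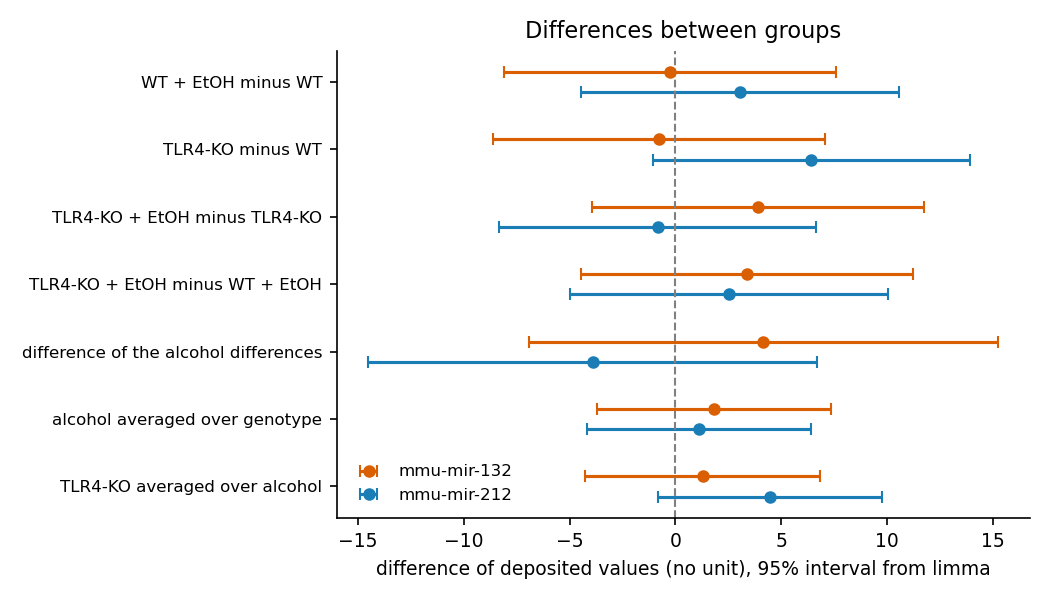
Differences of the deposited values (x axis, no unit) for the 7 comparisons, with points for the estimates and bars for the 95% intervals from limma, mmu-mir-132 in orange and mmu-mir-212 in blue. Every interval includes 0, and those of mmu-mir-212 for TLR4-KO minus WT (−1.07 to 13.9) and for TLR4-KO averaged over alcohol (−0.828 to 9.78) reach least below it.

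Since both hairpins come from 1 transcript, it was asked whether they kept their distance. mmu-mir-212 had the higher deposited value in 12 of 12 libraries, but the gap between the members was not constant. mmu-mir-212 minus mmu-mir-132 was 2.73, 4.51 and 3.60 in WT and 6.20, 11.3 and 3.26 in WT + EtOH. It was 20.8, 7.82 and 3.85 in TLR4-KO and 4.05, 6.56 and 7.61 in TLR4-KO + EtOH. TLR4-KO replicate 1 had the widest gap, with the highest mmu-mir-212 and the lowest mmu-mir-132 of the 12 libraries. The mean gap (± SD, n = 3) was 3.61 ± 0.889 in WT mice on water and 6.92 ± 4.07 on ethanol, and 10.8 ± 8.87 in TLR4-KO mice on water and 6.08 ± 1.83 on ethanol. An exact permutation test of 3 libraries against 3 gives no p under 0.1. Comparisons of the gap between single groups therefore could not pass the threshold of 0.05, and nothing is concluded from them. Over 400 arrangements, where 0.005 is the smallest possible, the exact permutation p was 0.18 for the difference of the alcohol differences. This was the smallest of the 7 comparisons (adjusted over the 7, 0.639). For this comparison ethanol was shuffled within each genotype, so that the p is exact only where alcohol has no effect in either genotype. The same test gave 0.865 for alcohol averaged over genotype and 0.365 for TLR4-KO averaged over alcohol, so that none of these passed.

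Over the 12 libraries no correlation between the values of the members was resolved, with Pearson's r = 0.271 (permutation p = 0.388) and Spearman's rho = 0.168 (permutation p = 0.598). Without TLR4-KO + EtOH replicate 1 and TLR4-KO replicate 1, the libraries farthest from the median of mmu-mir-132, r was 0.304 (permutation p = 0.405). For the deviations from the group means r was 0.289 (permutation p = 0.363). Among the 189 other precursors above 0 in every library, mmu-mir-212 was at place 34 by its r with mmu-mir-132. In turn, mmu-mir-132 was at place 59 of 189 by its r with mmu-mir-212. Adjusted over these and 3 rescaled versions, each p of r given here was 0.486. In the version centred on miR-181a and miR-181b, r was 0.134 and rho was 0.0175.

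**Figure D4:**
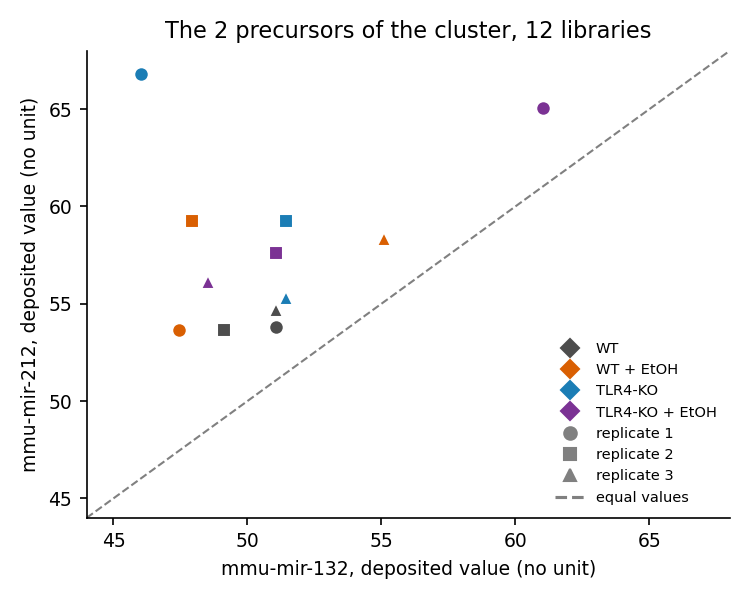
Deposited value of mmu-mir-212 (y axis, no unit) against that of mmu-mir-132 (x axis, no unit) in the 12 libraries, with colours for groups, shapes for replicate numbers and a dashed line at equal values. All points lie above the line, most of them at 46.0 to 55.1 on the x axis, and replicate 1 of TLR4-KO (46.0 and 66.8) and of TLR4-KO + EtOH (61.0 and 65.1) stand apart.

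The precursors with the most similar course over the 12 libraries were not shared by the 2 members. These correlations are the highest of 189 and are given as a description, without a p. The 5 most like mmu-mir-212 were mmu-mir-497a, of the miR-15/16 seed family (r = 0.928), mmu-mir-337 (r = 0.865) and mmu-mir-3544 (r = 0.864), whose hairpins overlap by 61 bases on opposite strands of chromosome 12, mmu-mir-425 (r = 0.809), which is co-transcribed with miR-191, and mmu-let-7i (r = 0.808). Without replicate 1 of TLR4-KO and of TLR4-KO + EtOH, r stayed at 0.832 for mmu-mir-497a and was between 0.176 and 0.510 for the others. The values of mmu-mir-497a ranged from 40.9 to 58.8. The 5 most like mmu-mir-132 were mmu-mir-873a (r = 0.843), mmu-let-7e (r = 0.810), mmu-mir-411, from the imprinted cluster of chromosome 12 (r = 0.787), and mmu-mir-181d (r = 0.769) and mmu-mir-181b-1 (r = 0.764), both of the miR-181 family. Their Spearman's rho over the 12 libraries was between 0.382 (mmu-mir-181d) and 0.638 (mmu-let-7e). Without the same 2 libraries r was between 0.127 and 0.392. These libraries hold the highest and the lowest mmu-mir-132, so that leaving them out also narrows its range.

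Other miRNAs linked to synaptic activity and plasticity were described as a list of 17 precursors. It held miR-134 and other members of the cluster from miR-379 to miR-410, which the activity-dependent factor MEF2 drives, miR-219a, which is like miR-132 a CREB-linked miRNA of the circadian clock, and miR-138, miR-137, miR-124 and miR-188. Of the 17, 16 were above 0 in some library and 11 in all 12, and mmu-mir-410 was at 0 throughout. limma called 0 of the 17 in each of the 7 comparisons, with 0 to 4 at an unadjusted p under 0.05. Such a p was found for 27 to 74 of all 589 precursors. The 4 of the list fell in TLR4-KO + EtOH minus WT + EtOH, where 27 of the 589 passed, and for TLR4-KO averaged over alcohol, where 53 did. The median difference of the 16 was 0.650 for WT + EtOH minus WT, 1.06 for TLR4-KO minus WT, −0.160 for TLR4-KO + EtOH minus TLR4-KO and −0.242 between the genotypes under alcohol, where that of all detected precursors was 0 each time. It was −2.39 for the difference of the alcohol differences (0.335 over all detected precursors), 0.791 for alcohol averaged over genotype (0.241) and −0.559 for TLR4-KO averaged over alcohol (−0.140).

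The precursors of miR-138, a regulator of dendritic spine size, had the highest values of the list. mmu-mir-138-1 was at 86.9 to 93.7 and mmu-mir-138-2 at 81.6 to 90.0 over the 12 libraries, and all groups overlapped. mmu-mir-485, a miRNA of the same imprinted cluster as miR-134 that acts at presynaptic terminals, followed. It was at 55.1, 56.9 and 56.1 in WT and at 59.3, 63.0 and 63.9 with ethanol, and at 63.0, 65.1 and 65.1 in TLR4-KO and at 58.8, 63.0 and 66.0 with ethanol. The 3 WT libraries of mmu-mir-485 were below the other 9, as for 5.25% of the 324 precursors above 0 in any library, whereas for mmu-mir-212 WT + EtOH replicate 1 was no higher than WT. Its differences did not pass the test either, with 8.35 (standard error 1.87, adjusted p = 0.0569 in limma) for TLR4-KO minus WT and 6.03 (standard error 1.87, adjusted p = 0.196 in limma) for WT + EtOH minus WT. The first lies near the threshold, under an adjustment that also counts the precursors at 0 in every library. Both comparisons use the same WT libraries. mmu-mir-219a-2 was at 4.20, 4.23 and 5.23 in WT, at 13.9, 0 and 11.3 in WT + EtOH and at 0 in all 6 libraries of TLR4-KO mice. Its WT values were close to 0, at levels that mmu-mir-137 also had in WT. Its difference for TLR4-KO minus WT was −4.56 (standard error 2.97, adjusted p = 0.756 in limma). The share of all precursors separated downwards in this way was not computed. mmu-mir-219a-1 was above 0 in a single library.

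The miRNAs that Toll-like receptor signals are known to induce or carry in immune cells were taken as a list of 5 precursors, of miR-146a, miR-146b, miR-155, miR-21a and miR-223. mmu-mir-223, of myeloid cells, was at 0 in all libraries, and mmu-mir-155 was above 0 in TLR4-KO replicate 1 (4.20) and 2 (17.8) only. limma called 0 of the 5 in each comparison, with 0 to 2 at an unadjusted p under 0.05. The 2 fell in TLR4-KO minus WT, where 72 of all 589 precursors had such a p. mmu-mir-146a, a feedback inhibitor of TLR4 signalling, was at 46.4, 46.4 and 48.6 in WT, at 37.8, 42.5 and 42.5 in WT + EtOH and at 29.6, 36.8 and 39.1 in TLR4-KO. With alcohol in TLR4-KO it was at 58.3, 46.4 and 42.1, above all 3 TLR4-KO libraries, as were 7.69% of the 299 precursors above 0 in these libraries (difference 13.8, standard error 4.10, adjusted p = 0.394 in limma). Over the 12 libraries its r was 0.737 with mmu-mir-132 and −0.0952 with mmu-mir-212, given as a description. mmu-mir-146b and mmu-mir-21a had r of −0.0177 and 0.0202 with mmu-mir-132, and of −0.568 and −0.516 with mmu-mir-212. The library with the highest mmu-mir-146a was also the one with the highest mmu-mir-132. mmu-mir-21a was at 49.5 to 50.6 in WT without and 37.8 to 45.0 with ethanol, and 32.1 to 50.2 in TLR4-KO without and 40.6 to 44.8 with ethanol. mmu-mir-146b was at 48.2 to 60.7 in WT and at 42.5 to 50.2 over the 9 libraries of the other groups.

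**Figure D5:**
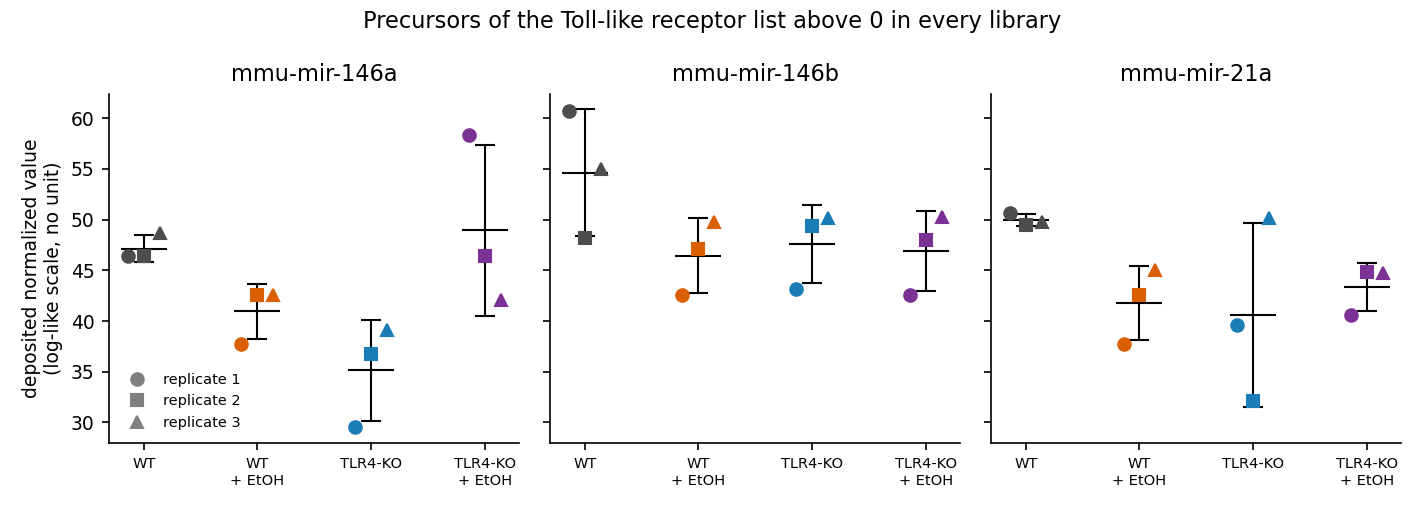
Deposited normalized value (y axis, log-like scale with no unit, not starting at 0) of mmu-mir-146a, mmu-mir-146b and mmu-mir-21a in the 4 groups, with a point per library, its shape for the replicate number, and bars for the group mean and SD (n = 3). mmu-mir-146a is lowest in TLR4-KO (29.6 to 39.1) and reaches 58.3 in TLR4-KO + EtOH replicate 1.

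The markers of the tissue and of other cells were summed per library beside these results. All 10 neuronal precursors (miR-124, miR-9, miR-128 and miR-138) were above 0 in all libraries. Their summed value was 647 to 653 in WT without and 658 to 669 with ethanol. In TLR4-KO it was 612 to 668 without and 633 to 656 with ethanol. A sum does not show members that move in opposite directions. In TLR4-KO minus WT, mmu-mir-9-1, mmu-mir-9-2 and mmu-mir-9-3 differed by −6.05, −5.50 and −5.90, and mmu-mir-128-1 by 8.24. The miR-138 precursors differed by −0.862 and −2.17, and mmu-mir-128-2 and the miR-124 precursors by 1.02 to 2.93. None of these differences passed the test in limma, with the lowest adjusted p at 0.0676 for mmu-mir-128-1. Of 5 blood precursors, 4 were found, and the sum was 159 to 173 in WT without and 140 to 177 with ethanol, and 136 to 149 in TLR4-KO without and 129 to 146 with ethanol. The 6 libraries of TLR4-KO mice thus had lower blood sums than the WT libraries on water. How often such a separation downwards occurs over all precursors was not computed. The precursors of this list did not move together. In TLR4-KO minus WT, mmu-mir-451a differed by −17.6 (adjusted p = 0.00948 in limma) and mmu-mir-150 by 9.28 (adjusted p = 0.00958 in limma). mmu-mir-142a and mmu-mir-144 differed by −11.8 and −4.13 and were not called. Of 5 precursors of choroid plexus and ciliated cells, 4 were found, 1 of them in all libraries, with mmu-mir-449a at 0 throughout. The sum was 78.9 to 94.5 in WT without and 45.6 to 51.9 with ethanol, and 59.2 to 76.1 in TLR4-KO without and 39.1 to 53.6 with ethanol. In WT + EtOH minus WT, mmu-mir-200a and mmu-mir-200b differed by −18.0 and −22.4, mmu-mir-34c by −0.768 and mmu-mir-34b by 0. In TLR4-KO minus WT they differed by −13.4, −15.6, −0.355 and 7.96. No difference of this list passed the test in limma, with the lowest adjusted p at 0.0616 for mmu-mir-200b in WT + EtOH minus WT. The 3 vascular precursors summed to 192 to 204 in all libraries, but they moved in opposite directions. For mmu-mir-126a, mmu-mir-143 and mmu-mir-145a the differences were −6.58, −6.45 and 8.09 in WT + EtOH minus WT. In TLR4-KO minus WT they were −5.37, −4.53 and 6.91. None of these differences passed the test in limma, with the lowest adjusted p at 0.0649 for mmu-mir-143 in WT + EtOH minus WT. The 2 oligodendrocyte precursors summed to 42.8 to 45.6 in WT without and 41.0 to 63.6 with ethanol, and 29.2 to 36.5 in TLR4-KO without and 40.4 to 45.2 with ethanol. As a description, r over the 12 libraries with mmu-mir-212 was negative for every sum, from −0.784 (blood) to −0.387 (choroid plexus and ciliated cells). With mmu-mir-132 it ran from −0.309 (blood) to 0.370 (neuronal). The part of these sums in the levels of mmu-mir-132 and mmu-mir-212 was not tested.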

How the data were processed

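Small RNA libraries of 12 cortex pools, 3 per group, were analysed. According to the methods and the processing notes, the authors trimmed adapters with cutadapt, mapped reads with Bowtie2 2.2.5 and TopHat (GRCm38), counted reads and normalized them. The methods name the trimmed mean of M values and a negative binomial model. The deposited values are a score without a unit, whose scale is not given in the sources used here. They are not whole numbers, every library has the same highest value, and the values of all libraries together fall on 387 distinct levels, as after a quantile normalization. No count model was therefore run. limma 3.58.1 in R 4.3.3 was fitted to the 589 precursors with 1 mean per group and no covariate, with a Benjamini-Hochberg adjustment over all precursors and a threshold of 0.05. Exact permutation tests were two-sided. Python 3.11.15, scipy 1.17.1, pandas 2.3.3 and matplotlib 3.10.9 were used. The test was tried on simulated data. The members, lists and comparisons were chosen with earlier results of these data known. Named precursors are the members, the 5 most correlated with each, the 2 next above and below each by mean, the listed Toll-like receptor precursors and, where none was called, the 3 highest of the plasticity list. mmu-mir-219a-1, mmu-mir-219a-2 and mmu-mir-410 were named after their values were seen. Sequences are from RefSeq and positions from GENCODE M21. The alternatives were another quantile normalization, centring on the median or on miR-181a and miR-181b, a filter and a replicate block. Further ones were another variance model on the detected precursors alone, the compared groups alone and each library left out.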

Additional observations from a re-analysis of the deposited data

How the results depend on the processing

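Neither member was called in any of 260 refits of the 14 member comparisons. The lowest adjusted p was 0.220, for mmu-mir-212 in TLR4-KO minus WT with trend and robust settings in limma. That refit also left out the precursors at 0 in every library. A sign turned in 0 of 42 refits under another scaling, and in 14 of 168 that left out a library. The 168 include refits without a library of a group that was not compared, which keep the estimate and could not turn a sign. The refits that neither rescaled nor left out a library also keep the estimate and change only its error. The lowest unadjusted p were for mmu-mir-212 without TLR4-KO replicate 3, 0.0269 in TLR4-KO minus WT and 0.0324 for TLR4-KO averaged over alcohol.

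Leaving out 1 library at a time (12 refits per comparison) gave, for mmu-mir-132, −2.72 to 1.10 in WT + EtOH minus WT, −1.69 to 1.02 in TLR4-KO minus WT, −0.371 to 5.88 in TLR4-KO + EtOH minus WT + EtOH, −0.0487 to 3.08 for alcohol averaged over genotype and −0.578 to 2.55 for TLR4-KO averaged over alcohol. For mmu-mir-212 it gave −3.58 to 2.34 in TLR4-KO + EtOH minus TLR4-KO, −0.210 to 4.26 in TLR4-KO + EtOH minus WT + EtOH and −0.263 to 2.70 for alcohol averaged over genotype. The gap between the members was −8.24 to 0.242 in TLR4-KO + EtOH minus TLR4-KO, −2.68 to 1.34 in TLR4-KO + EtOH minus WT + EtOH, −2.46 to 1.78 for alcohol averaged over genotype and −11.5 to −3.07 for the difference of the alcohol differences. For the last of these the permutation p was 0.025 without TLR4-KO replicate 3, with ethanol shuffled within genotype and the same limit as above. The causes were not tested.

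The number of precursors called by limma, out of 589 unless stated, also changed. In order of comparison, leaving out 1 library gave 4 to 18 (WT + EtOH minus WT), 11 to 22 (TLR4-KO minus WT), 0 to 4 (TLR4-KO + EtOH minus TLR4-KO), 0 to 3 (TLR4-KO + EtOH minus WT + EtOH), 2 to 15 (difference of the alcohol differences), 2 to 8 (alcohol averaged) and 2 to 12 (TLR4-KO averaged). Another quantile normalization gave 0, 1 and 5 for the third, the fourth and the last of these, and centring on miR-181 gave 0, 12, 0 and 4 for the third and the last 3. Keeping precursors above 0 in at least 3 libraries tested fewer and called 21, 31, 13 and 0 for the first, the second, the fifth and alcohol averaged. Trend and robust settings were fitted to the 324 precursors above 0 in any library only. They gave 26, 0, 0, 0 and 3 for the second, the third, the fourth and the last 2. The compared groups alone gave 0 and 0 for the third and the fourth. Where 0 were called, 24 to 50 had an unadjusted p under 0.05 in limma.

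The replicate numbers were not taken as pairs, since no label ties them to a batch and not every pair correlated over 0.1. The deviations of same-numbered libraries correlated at −0.109 to 0.153 (median 0.113), over 0.1 in 10 of 18 pairs, against a median of −0.0376 and 4 of 36 for other numbers, and 6 of 12 libraries were closest to their own number. With the replicate as a block, 24 precursors in place of 15 were called in TLR4-KO minus WT, and 3 in place of 7 for the difference of the alcohol differences. The block left mmu-mir-212 in TLR4-KO minus WT at 6.42 (adjusted p = 0.543 in limma) and changed no member's call. Without read counts per library and precursor, the limit set by depth was not computed.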

Other observations

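Some deposited values of the members are shared between libraries, and for each member a higher value went with a higher rank throughout. A value thus stands for a rank within its library. mmu-mir-132 was at 51.1 in WT replicates 1 and 3 and in TLR4-KO + EtOH replicate 2, where it was at rank 88 each time, and at 51.4 in TLR4-KO replicates 2 and 3, at rank 87 in both. mmu-mir-212 was at 53.6 in WT replicate 2 and WT + EtOH replicate 1 (rank 82 in both) and at 59.3 in WT + EtOH replicate 2 and TLR4-KO replicate 2 (rank 68 in both). Over the 12 libraries mmu-mir-132 lay between the ranks 64 and 104 and mmu-mir-212 between 54 and 82. Equal values therefore show equal ranks and not equal numbers of molecules.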
